A study of Mus musculus with 6 samples.

Results

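The 5 genes described here encode proteins of the plasminogen activation system and of the serpin family: the proteases Plau and Plat, the receptor Plaur, and the serpins Serpine2 and Serpinf1. They were taken by symbol from the 53801 rows of the gene count table, and all 5 were found and passed the filter on low counts. The cells came from the stromal vascular fraction, which holds preadipocytes and the other cells of fat besides mature adipocytes, of inguinal white fat of mice labelled wild type or Ythdf1 knockout. They were grown in culture and given adipogenic induction for 4 days before RNA was taken. Each genotype had 3 libraries, called biological replicates by the series, and both groups received the same culture and induction. Ythdf1 is a reader of m6A, a methyl mark on RNA. The labels do not give the deleted part of the gene, the strain, sex or age of the mice, or whether cells of several mice were pooled.

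Plasminogen activators are serine proteases that cut plasminogen into plasmin, which digests fibrin and matrix proteins and can activate other proteases. The urokinase-type activator (Plau) works at the cell surface, where its anchored receptor (Plaur) holds it, and the tissue-type activator (Plat) is best known for dissolving fibrin. Most serpins are suicide inhibitors that trap a protease in a covalent complex. Serpine2, or protease nexin 1, inhibits thrombin and both activators, whereas Serpinf1, or pigment epithelium-derived factor, has the serpin fold but inhibits no known protease and is secreted by preadipocytes and adipocytes.

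Stretches just before an annotated transcription start are shown so that a reader can set their letters beside the RNA levels. They are given for Serpine2, Serpinf1 and Plaur, the 3 of the 5 members matched in the RefSeq promoter table used. Promoters of Plau and Plat were not analysed here. The sequences are RefSeq promoter windows on GRCm38.p6, read 5′ to 3′ on the strand of the gene and ended where RefSeq or the GENCODE principal transcript first starts. Capitals mark matches on either strand to the GC box GGGCGG, the CCAAT box CCAAT, the AP-1 motif TGANTCA or the nuclear receptor core site AGGTCA.
Serpine2 (chr1:79858697-79858915, minus strand): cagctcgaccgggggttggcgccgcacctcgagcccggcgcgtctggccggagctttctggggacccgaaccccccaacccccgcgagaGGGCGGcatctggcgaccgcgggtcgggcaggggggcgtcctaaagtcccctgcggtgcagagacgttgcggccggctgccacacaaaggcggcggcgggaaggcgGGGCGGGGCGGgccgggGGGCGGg
Serpinf1 (chr11:75422702-75422873, minus strand): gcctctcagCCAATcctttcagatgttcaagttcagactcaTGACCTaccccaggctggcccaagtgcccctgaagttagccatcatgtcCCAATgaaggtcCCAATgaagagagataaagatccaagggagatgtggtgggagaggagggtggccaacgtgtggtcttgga
Plaur (chr7:24462233-24462482, plus strand): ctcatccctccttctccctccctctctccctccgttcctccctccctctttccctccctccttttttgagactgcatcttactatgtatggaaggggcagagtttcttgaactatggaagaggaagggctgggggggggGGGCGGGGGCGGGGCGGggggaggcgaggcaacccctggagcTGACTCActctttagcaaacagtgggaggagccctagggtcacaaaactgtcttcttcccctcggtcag

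The Serpine2 stretch was 77.6% G or C, against 59.6% for Plaur and 52.9% for Serpinf1. It lies inside the annotated span of Serpine2 (79794197 to 79861180), so the annotated gene also extends upstream of it. In the 250 bases before the RefSeq start, Serpine2 held 6 GC box matches, of which 4 lie in the printed stretch, and none to the other motifs searched. Plaur held 3 GC box matches that overlap or adjoin each other and an AP-1 match that spans the bases 69 to 63 before the start. Serpinf1 held 3 CCAAT box matches and 1 receptor core site on the opposite strand. Of 32817 mouse promoter windows of 250 bases, 32.7% held the GC box, 33.8% the CCAAT box, 14.0% the receptor core site and 6.75% the AP-1 motif on either strand. The TATA box TATAAA was in 12.4% of windows and in none of these 3. The motifs were chosen with these sequences in view, and a match describes letters only.

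Libraries held 16619605 to 20089138 counts, and the floor of 3 counts, which covers counting error only, lay at 0.146 to 0.185 CPM. CPM is the usual scale of counts relative to the library total, here with TMM scaling, with mean ± SD over n = 3 libraries per genotype. Ythdf1 was at 42.8 to 45.1 CPM in the knockout libraries and 60.4 to 63.0 CPM in wild type, so that most of its signal remained, and whole-gene counts check the labels only in part. All 10 adipocyte markers listed had counts and were higher in the knockout, with a summed level of 17010 to 22968 CPM against 3816 to 5888 CPM. All 9 smooth muscle and myofibroblast markers were lower, with 112 to 138 CPM against 709 to 1069 CPM in sum. The cells of such a culture are mixed, and fewer cells of a type and less RNA per cell cannot be told apart in these bulk samples.

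Serpine2, Plat and Serpinf1 fell in the knockout, and neither Plau nor Plaur passed the test. Thus 3 of the 5 members were called lower and 0 higher, where 21.7% of the 14816 genes tested were called lower, 22.6% higher and 44.3% either way. The 3 knockout values lay below all 3 wild-type values for the same 3 genes, a pattern shown by 27.3% of all genes tested, while 55.2% did not overlap in either direction. Serpine2 was 2.02-fold and Plat 2.10-fold lower, and 6.69% of all genes tested were called lower by at least 2-fold. Serpinf1 was 1.25-fold lower. The plot of CPM by library shows the 3 separated genes beside the 2 that overlapped.

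**Figure D1:**
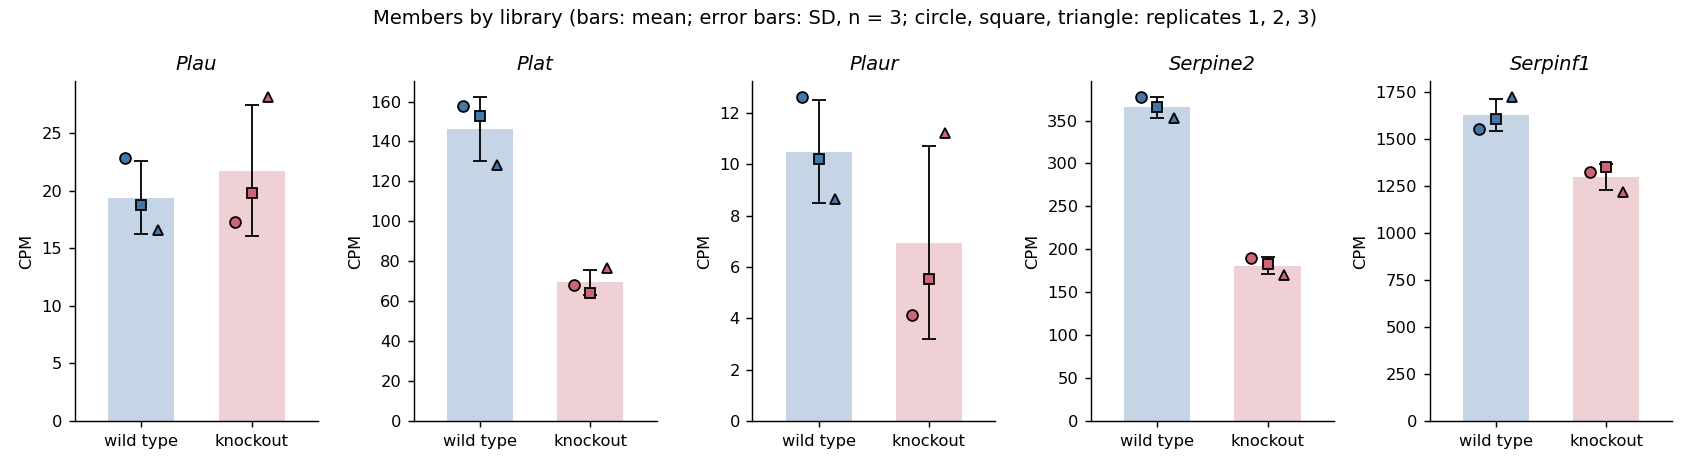
CPM (y axis, from 0) of the 5 genes in each wild-type and knockout library, with points for replicates 1 to 3, bars for the mean and error bars for the SD of 3 libraries. Plat, Serpine2 and Serpinf1 have no knockout point above a wild-type point, while Plau and Plaur overlap and have their highest knockout point in replicate 3.

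Plat (ENSMUSG00000031538), on the plus strand of chromosome 8 between 22757727 and 22782844 in GRCm38, is the protease that activates plasminogen bound to fibrin. It was at 68.1, 64.0 and 76.4 CPM in the knockout (replicates 1, 2 and 3 in this order, here and below) against 157.8, 152.7 and 128.0 CPM in wild type. The highest knockout library stayed well below the lowest wild-type library. The means were 69.5 ± 6.31 and 146 ± 15.9 CPM (SD, n = 3). By edgeR's quasi-likelihood test the log2 fold change was -1.07 ± 0.10 (SE; adjusted p = 1.06e-05). As a ratio this is 0.476, and its 95% interval runs from 0.406 to 0.557. Of all genes tested, 6.36% had a lower log2 fold change.

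Plau (ENSMUSG00000021822), on the plus strand of chromosome 14 between 20836660 and 20843385, encodes the activator that acts at the cell surface. Its level was 17.3, 19.8 and 28.1 CPM in the knockout and 22.8, 18.7 and 16.6 CPM in wild type. The genotypes overlapped, and knockout replicate 3 was the highest of the 6 libraries. The means were 21.7 ± 5.68 and 19.4 ± 3.19 CPM (SD, n = 3), and the log2 fold change of 0.17 ± 0.18 (SE) did not pass (edgeR adjusted p = 0.501). Its 95% interval ran from -0.24 to 0.58, so the data allow a fold between 0.845 and 1.49. Without knockout replicate 3 the log2 fold change was -0.06 (edgeR adjusted p = 0.764), so the sign of this value rests on that library.

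The 2 activators were also set against each other within each library. Levels between genes are given per kilobase of annotated exon, and the size of such a ratio, but not its contrast between genotypes, depends on the lengths used. The ratio of Plat to Plau on that scale was 1.50, 1.23 and 1.03 in the knockout libraries, against 2.62, 3.09 and 2.93 in wild type. Every knockout ratio was below every wild-type ratio, with means of 1.25 ± 0.233 and 2.88 ± 0.241 (SD, n = 3). An exact permutation test of the log2 ratios, 2-sided, gave p = 0.1, the smallest that 3 against 3 libraries allow.

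Plaur (ENSMUSG00000046223), on the plus strand of chromosome 7 between 24462484 and 24475968, encodes the urokinase receptor, which is also made by macrophages and other myeloid cells. Plaur had the fewest reads of the 5 genes, with raw counts of 75, 97 and 230 in the knockout and 223, 165 and 151 in wild type. The level was 4.12, 5.51 and 11.2 CPM in the knockout libraries, against 12.6, 10.2 and 8.63 CPM in wild type. Knockout replicates 1 and 2 were below all wild-type libraries, and knockout replicate 3 was within the wild-type range. The means were 6.95 ± 3.75 and 10.5 ± 2.01 CPM (SD, n = 3), and the log2 fold change of -0.58 ± 0.34 (SE) did not pass (edgeR adjusted p = 0.200). Without knockout replicate 3 it was -1.12 with an edgeR adjusted p of 0.000952, and without knockout replicate 1 it was -0.31 with an adjusted p of 0.435. It also passed without a filter on low counts (log2 fold change -0.58, edgeR adjusted p = 0.00943). The spread of Plaur among knockout libraries, a coefficient of variation of 54.0%, was the widest of the 5 genes, with Plau next at 26.2% and the other 3 between 5.36% and 9.08%.

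Macrophage markers were also uneven among the knockout libraries. All 10 of them had counts in the libraries, and all 10 were highest in knockout replicate 3. Their summed level was 292, 294 and 790 CPM in the knockout libraries, against 165, 111 and 91.3 CPM in wild type; 8 of the 10 were called higher and 0 lower. The macrophage surface gene Adgre1 was at 33.4, 29.9 and 79.4 CPM in the knockout and 7.58, 6.12 and 5.43 CPM in wild type. Within wild type, Plau, Plaur and the macrophage sum were each highest in replicate 1. The part of macrophages in the levels of Plau and Plaur was not tested. Neutrophil markers were near 0, with a sum of 4.09 to 7.50 CPM in the knockout and 6.46 to 6.86 CPM in wild type over 8 genes, of which Cxcr2 had 0 counts in every library.

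**Figure D2:**
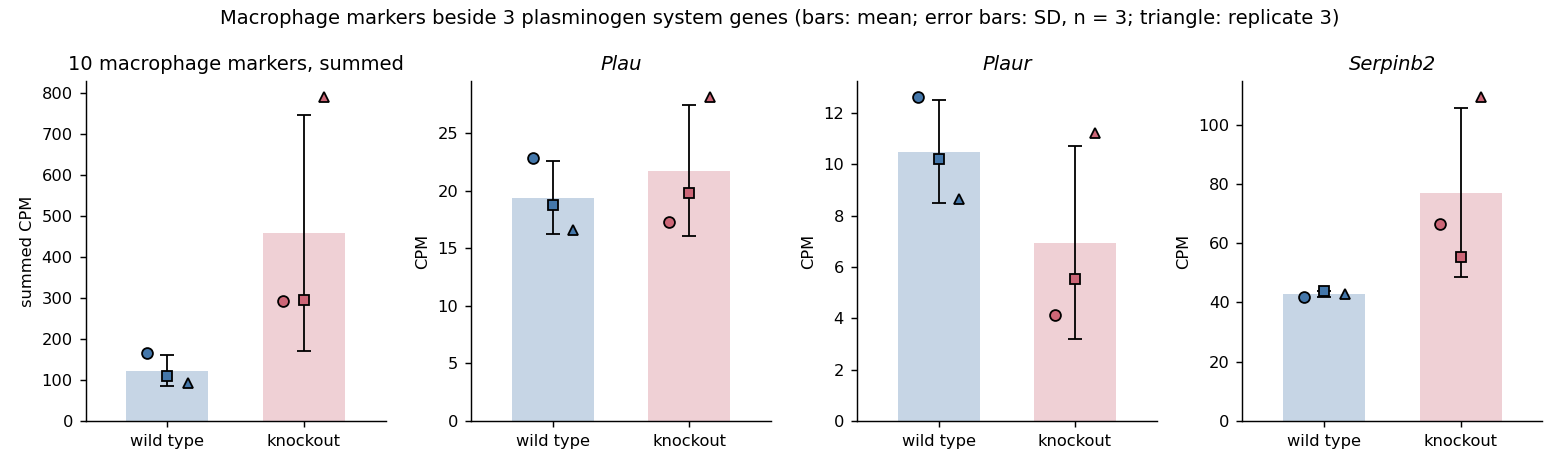
Summed CPM of 10 macrophage markers and CPM of Plau, Plaur and Serpinb2 (y axes, from 0) in each library, with points for replicates 1 to 3, bars for the mean and error bars for the SD of 3 libraries. Knockout replicate 3 is the highest knockout library in each panel, at 790 CPM for the markers, 28.1 for Plau, 11.2 for Plaur and 109 for Serpinb2.

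The ratio of Plau to its receptor gene Plaur, per kilobase, was 4.63, 3.97 and 2.77 in the knockout and 2.003, 2.03 and 2.12 in wild type. Knockout ratios lay above the wild-type ones in every library, and the wild-type values were close together. The means were 3.79 ± 0.940 and 2.05 ± 0.0631 (SD, n = 3), and the exact permutation test again gave its smallest possible value, p = 0.1.

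Serpine2 (ENSMUSG00000026249; GRCm38 chromosome 1, 79794197 to 79861180, minus strand) encodes the serpin that inhibits thrombin, urokinase and tissue-type activator at the cell surface and in the matrix. It was at 189.7, 182.4 and 170.5 CPM in the knockout libraries, against 377.0, 365.7 and 353.3 CPM in wild type. Each genotype held a narrow range, with coefficients of variation of 5.36% and 3.25%, and the ranges were far apart. The means were 181 ± 9.70 and 365 ± 11.9 CPM (SD, n = 3), and the log2 fold change was -1.01 ± 0.09 (SE; edgeR adjusted p = 5.54e-06). Knockout over wild type was 0.495 (95% interval 0.432 to 0.567). Serpine2 and Plat were the most alike of the 10 pairs among these genes. The root mean square difference of their log2 CPM, each centred on its mean over 6 libraries, was 0.135, against 0.352 to 0.642 for the other pairs. They were also the 2 members with the largest falls, which this measure takes in. Genes outside the members were closer, such as Msrb3 to Serpine2 (0.0302) and Itgb1 to Plat (0.0383).

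Serpinf1 (ENSMUSG00000000753; GRCm38 chromosome 11, 75409769 to 75422701, minus strand) encodes a secreted protein without inhibitor activity that binds the triglyceride lipase Pnpla2 and limits new vessel growth. Its levels were 1326, 1352 and 1220.3 CPM in the knockout and 1557, 1605 and 1724 CPM in wild type. The groups did not overlap, but the gap between the highest knockout and the lowest wild-type library was small beside the levels. The means were 1299 ± 69.8 and 1629 ± 85.7 CPM (SD, n = 3), and the log2 fold change was -0.33 ± 0.10 (SE; edgeR adjusted p = 0.0200). Knockout over wild type was 0.798 (95% interval 0.686 to 0.929), and 25.6% of all genes tested had a lower log2 fold change. The call ended without knockout replicate 1 (edgeR adjusted p = 0.0696) or 3 (0.0524), and without wild-type replicate 2 (0.0728) or 3 (0.0600), while the log2 fold change stayed between -0.36 and -0.28.

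The 2 serpins were also set against each other. Their 95% intervals of log2 fold change, -1.21 to -0.82 for Serpine2 and -0.54 to -0.11 for Serpinf1, did not overlap. Within each library the ratio of Serpinf1 to Serpine2 per kilobase was 24.6, 26.0 and 25.1 in the knockout and 14.5, 15.4 and 17.1 in wild type. All knockout ratios were above all wild-type ratios, at 25.2 ± 0.738 against 15.7 ± 1.34 (SD, n = 3), with an exact permutation p of 0.1, the smallest possible.

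**Figure D3:**
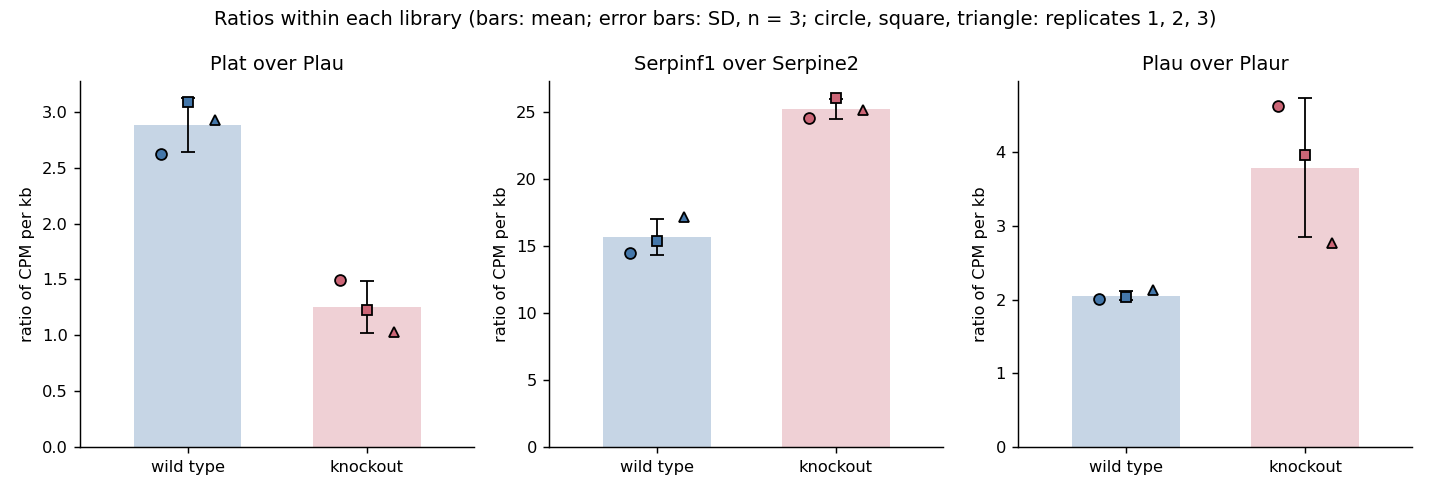
Ratio of CPM per kilobase of annotated exon (y axis, from 0) within each library for Plat over Plau, Serpinf1 over Serpine2 and Plau over Plaur, with points for replicates 1 to 3, bars for the mean and error bars for the SD of 3 libraries. The genotypes do not overlap in any of the 3 panels: the first ratio is lower in the knockout and the other 2 are higher.

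In both genotypes the order of levels per kilobase was Serpinf1, Serpine2, Plat, Plau and Plaur. In wild type these levels were 690 ± 36.3, 44.1 ± 1.43, 23.4 ± 2.56, 8.19 ± 1.35 and 4.00 ± 0.766 CPM per kb (SD, n = 3), and each step exceeded the spread. In the knockout they were 551 ± 29.6, 21.8 ± 1.17, 11.1 ± 1.01, 9.18 ± 2.40 and 2.65 ± 1.43 CPM per kb, where Plat and Plau did not differ beyond their spread. The joined exons of Serpine2 and Plat, 8287 and 6241 bp, are much longer than their principal transcripts of 2210 and 2525 bp. With the principal length, a choice made after seeing the data, the order was the same, but the knockout level of Plat was 27.5 ± 2.50 against 9.27 ± 2.43 CPM per kb for Plau (SD, n = 3), a gap beyond the spread.

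By the same measure of likeness, 10465 genes of at least 5 CPM were compared with each member over the 6 libraries. Nearest to Serpine2 were Msrb3, Vamp5 and Efnb1, with root mean square differences of 0.0302, 0.0398 and 0.0460 on the log2 scale. Nearest to Plat were the integrin beta 1 gene Itgb1 (0.0383), Maged2 (0.0482) and Pdzrn3 (0.0514). Nearest to Serpinf1 were Cltb (0.0230), the membrane metalloproteinase gene Mmp14 (0.0245) and Taf8 (0.0285). The closest genes to Plau were farther off, at 0.104 for Cpxm1, 0.115 for Casp8 and 0.118 for Fgd6. For Plaur they were the chemokine gene Cxcl1 (0.148), Rasl11a (0.191) and Polq (0.202). Cxcl1 was at 13.9, 15.9 and 28.2 CPM in the knockout and 43.3, 30.3 and 25.0 CPM in wild type. Within each genotype it was highest in the same library as Plaur, which its choice by likeness to Plaur favours.

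Around the members, a list of 25 genes of plasminogen activation, its receptors and its inhibitors had 19 tested, of which 4 were higher, 7 lower and 8 not called. Without the 4 members it holds, 15 genes were tested, with 4 higher and 5 lower. Over all genes tested, 22.6% were higher and 21.7% lower, shares to be set beside this list and those below. The median log2 fold change of the 19 was -0.23, against 0.0084 over all genes tested. Without wild-type replicate 1 the calls were 2 higher and 5 lower. The plot of log2 fold changes for this list shows both directions.

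**Figure D4:**
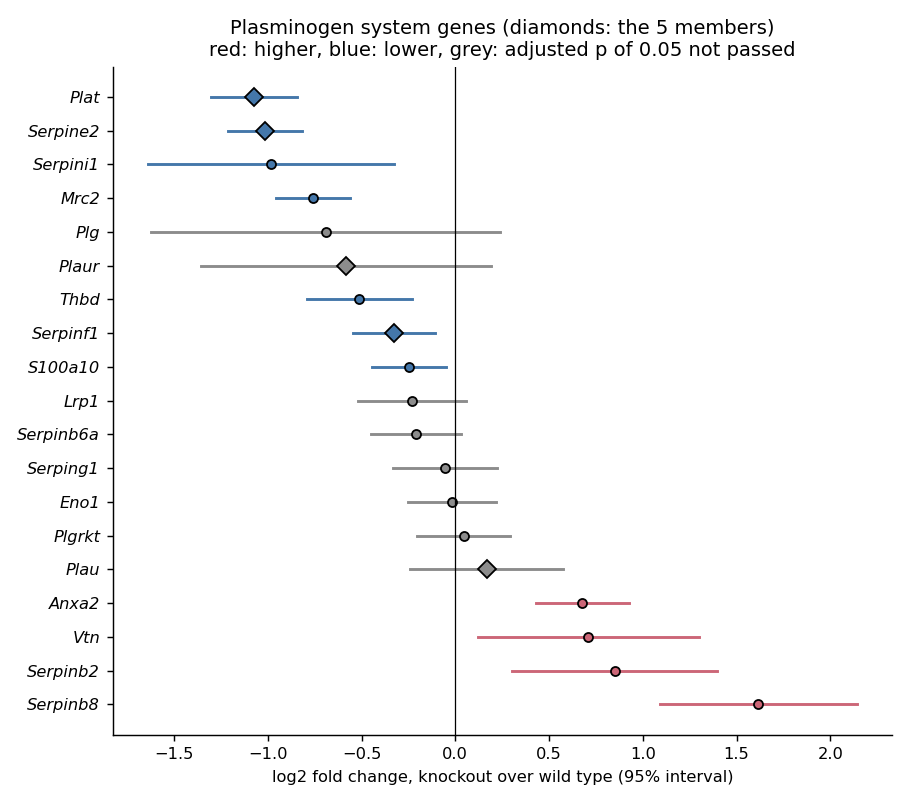
Log2 fold change, knockout over wild type (x axis), with 95% intervals for tested genes of the plasminogen list and Serpinf1; diamonds are the 5 members and colours give the edgeR call. Plat and Serpine2 have the lowest values, at -1.07 and -1.01, and Serpinb8 has the highest, at 1.62.

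A pair of serpin genes in this list rose. Serpinb2 or PAI-2, an inhibitor of urokinase made by macrophages among other cells, was at 66.5, 55.3 and 109 CPM in the knockout and 41.9, 43.9 and 42.7 CPM in wild type. All knockout libraries were above wild type, with replicate 3 far above the rest. The log2 fold change was 0.85 (edgeR adjusted p = 0.0211). It was 0.51 without knockout replicate 3, still called, and the call ended without wild-type replicate 1 (adjusted p = 0.0873) or 2 (0.0525). Serpinb8, a serpin that stays mostly inside cells, rose from 5.07 ± 2.02 to 15.5 ± 0.608 CPM (SD, n = 3; log2 fold change 1.62, edgeR adjusted p = 0.000299). The C1 inhibitor gene Serping1, at 1624 ± 113 against 1686 ± 263 CPM (SD, n = 3), was not called (edgeR adjusted p = 0.761).

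Plasminogen itself was scarce. Plg, the gene of the zymogen that the liver supplies to blood, had 13, 10 and 8 raw counts in the knockout and 16, 18 and 12 in wild type, and did not pass (log2 fold change -0.69, edgeR adjusted p = 0.211). These counts allow no firm statement on a difference. The plasminogen receptor gene Plgrkt was not called, with 33.9 ± 4.02 against 32.8 ± 3.05 CPM (edgeR adjusted p = 0.781). Anxa2, which binds plasminogen and tissue-type activator at the cell surface, rose from 1220 ± 119 to 1952 ± 169 CPM (SD, n = 3, log2 fold change 0.68, edgeR adjusted p = 0.000550). S100a10, of the same list, went the other way, from 100 ± 2.48 to 84.4 ± 8.64 CPM (SD, n = 3). Its log2 fold change was -0.25 (edgeR adjusted p = 0.0428), a call that held in 6 of 13 alternatives.

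Of 23 genes that partner the urokinase receptor or clear protease and inhibitor complexes, 21 were tested, with 6 higher, 7 lower and 8 not called (median log2 fold change 0.0007). Plaur and Mrc2 are in this list as well. Among integrin subunit genes, Itgb1, Itgb5, Itga5 and Itgav fell, with log2 fold changes of -1.03, -0.93, -0.87 and -0.83. Itgb3, a subunit of the vitronectin receptor, was not called (log2 fold change -0.13, edgeR adjusted p = 0.431), nor was Itga3 (0.63, adjusted p = 0.0632). Mrc2, an endocytic collagen receptor that associates with the urokinase receptor, fell from 724 ± 15.1 to 428 ± 15.2 CPM (SD, n = 3; log2 fold change -0.76, edgeR adjusted p = 4.92e-05). Clearance and sorting receptor genes were split. Vldlr rose by 0.79, Sort1 by 1.74 and Sorl1 by 3.81 on the log2 scale, and Igf2r fell by 0.37. Lrp1, the main scavenger of activator and inhibitor complexes, was at 3196 ± 495 against 3751 ± 323 CPM and was not called (edgeR adjusted p = 0.179). Itgam, a myeloid integrin gene, rose by 2.48 on the log2 scale and by 1.81 without knockout replicate 3, beside the macrophage markers.

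Of 25 genes listed as substrates of plasmin or of the activators, 23 were tested. Of these, 4 were higher, 14 lower and 5 not called, with a median log2 fold change of -0.78. Among all genes tested, 22.6% were higher and 21.7% lower. Fibronectin (Fn1) fell by 0.88, thrombospondin 1 (Thbs1) by 1.65, biglycan (Bgn) by 0.78 and stromelysin 1 (Mmp3) by 1.50 on the log2 scale. Thbs1 was at 1583, 1360 and 2243 CPM in the knockout and 6483, 5480 and 4275 CPM in wild type, without overlap. Vegfa rose by 0.98 and Igfbp5 by 1.97. Many of these genes are products of fibroblasts. Of 10 progenitor and fibroblast markers, 7 were lower, 0 higher and 3, Pdgfra, Ly6a and Dcn, not called. Their summed level was 11920 to 12527 CPM in the knockout and 22609 to 24603 CPM in wild type, and most of it was Col1a1. Without Col1a1 the sums were 4694 to 4851 CPM and 5696 to 5770 CPM. The part of these markers in these genes or in Serpine2 and Plat was not tested.

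Among 24 genes of thrombin and coagulation, 19 were tested, with 2 higher, 8 lower and 9 not called (median log2 fold change -0.50). Serpine2 is in this list as a thrombin inhibitor, and without it 18 genes were tested, with 2 higher and 7 lower. The thrombin receptor gene F2r was at 95.9 ± 0.939 CPM in the knockout and 226 ± 12.6 CPM in wild type (SD, n = 3). Its log2 fold change was -1.24 ± 0.08 (SE, edgeR adjusted p = 1.22e-06). The tissue factor gene F3, which starts coagulation, fell by 1.37, and the protease inhibitor gene Tfpi2, which also inhibits plasmin, fell by 1.99 on the log2 scale. Thrombomodulin (Thbd) fell by 0.51 and Gas6 by 1.04. F13a1, the clot cross-linking factor gene that macrophages express, rose by 2.004, and by 1.37 without knockout replicate 3.

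Genes for proteins that bind Serpinf1 went in both directions. Of 10 tested, 3 were higher and 5 lower (median log2 fold change -0.39). The lipase gene Pnpla2, its partner in fat cells, rose by 2.54 on the log2 scale, at 1578 ± 194 against 271 ± 94.2 CPM (SD, n = 3). Pnpla2 is also among the 10 adipocyte markers, which were all higher, with a median log2 fold change of 2.40. The part of adipocytes in its rise was not tested. Of the plexin-domain receptor genes of Serpinf1, Plxdc2 fell from 117 ± 9.16 to 35.4 ± 4.02 CPM (log2 fold change -1.73). Plxdc1 rose by 1.90 at a low level, with 20, 21 and 39 raw counts in the knockout and 6, 10 and 3 in wild type. Lrp6 did not pass, at 168 ± 10.7 against 175 ± 8.26 CPM (edgeR adjusted p = 0.602). The other genes called in this list were Atp5b, with a log2 fold change of 1.33, Col1a1 (-1.24), Col1a2 (-1.20), Rpsa (-0.50) and Fzd1 (-0.29). Col1a1 is also among the progenitor and fibroblast markers, and the call of Fzd1 held in 6 of 13 alternatives.

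In the serpin family as a whole, 61 genes that are not pseudogenes were in the table, 51 had a count and 28 were tested. Of these 2 were higher, 13 lower and 13 not called, with a median log2 fold change of -0.56. Without the members Serpine2 and Serpinf1, 26 were tested, with 2 higher and 11 lower. Among all genes tested, 22.6% were higher and 21.7% lower. Mouse serpins include clusters of close copies, whose reads can be shared or discarded, and 19 of the 28 belong to the clusters of Serpina1, Serpina3, Serpinb1, Serpinb6 and Serpinb9, with 8 lower and 0 higher. Among the others, Serpine2, Serpinf1, Serpinh1 and Serpini1 were lower, and Serpinb2 and Serpinb8 were higher. Serpinh1, a collagen chaperone that does not inhibit proteases, fell from 1931 ± 99.6 to 979 ± 43.5 CPM (SD, n = 3; log2 fold change -0.98 ± 0.10 SE, edgeR adjusted p = 1.47e-05). Serpini1, or neuroserpin, an inhibitor of tissue-type activator, fell from 3.53 ± 0.869 to 1.78 ± 0.501 CPM (SD, n = 3; edgeR adjusted p = 0.0194).

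Of 20 genes of the AP-1, Ets, Egr and TGF-beta families, which include known inducers of the activators and their receptor, 5 were higher, 5 lower and 10 not called (median log2 fold change 0.011). These shares are near those of all genes tested, of which 22.6% were higher and 21.7% lower. Fosl1, an AP-1 subunit, rose from 54.5 ± 11.5 to 110 ± 8.87 CPM (SD, n = 3), Atf3 rose by 1.98 and Jun by 0.33 on the log2 scale, while the AP-1 subunit gene Fosb fell by 1.43. Of the TGF-beta receptor genes, Tgfbr1 fell by 0.67 and Tgfbr2 rose by 0.47, a call that ended without knockout replicate 1 (edgeR adjusted p = 0.0545). Smad3 fell by 0.56, Smad4 by 0.36 and Tgfb3 by 0.39, and Ets2 rose by 0.53. The AP-1 motif in the printed stretch of Plaur is set beside these values as a description, and binding was not measured.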

How the data were processed

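RNA of 3 knockout and 3 wild-type libraries was compared. Per the labels, ribosomal RNA was depleted from total RNA before paired-end sequencing. The authors deposited raw counts per Ensembl gene, not normalized, and the submitters' processing notes name STAR and featureCounts with mm10 and GRCm38. The sources used here give no versions, annotation, strand setting or treatment of multiply mapped reads. Reads shared by close paralogs or by overlapping and antisense genes are therefore uncertain. No other annotated gene overlaps the 5 members. Columns were matched to samples by name, and symbols, positions and exon lengths came from GENCODE M21 (53706 of 53801 identifiers matched).

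Counts were fitted with edgeR 4.0.16 in R 4.3.3 across 14816 genes kept by filterByExpr (minimum count 10, minimum total 15), with TMM factors and the robust quasi-likelihood F test, 2-sided. Adjusted p-values are Benjamini-Hochberg over all genes tested, at 0.05. Intervals of fold changes use the same fit. The fit was tested on simulated data. The series calls the replicates biological, and p-values refer to the spread between these libraries only. Replicates were distinct libraries, with a chi-square per degree of freedom of 10.2 to 26.3 within a genotype.

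Members and lists were chosen with earlier results of these data known. Named from each list were up to 6 genes that rose and 6 that fell in order of level and the 3 most abundant not called, as well as Plg, Plgrkt, Mrc2 and Lrp1; a gene that this rule names is not reported here. For each member the 3 most alike genes were also named. Serpini1, Itgb3, Itga3, Cxcr2 and Adgre1 were named after their values were seen. Marker lists covered adipocytes, fibroblasts, smooth muscle, macrophages, endothelium, mesothelium, neutrophils and Schwann cells. Endothelial markers summed to 26.6 to 39.1 CPM in the knockout and 23.8 to 30.7 in wild type, mesothelial markers to 42.9 to 58.2 and 44.1 to 59.5, and Schwann markers to 33.4 to 35.0 and 22.8 to 25.5 CPM. Alternatives were RLE factors, DESeq2 1.42.0, voom from limma 3.58.1, other low-count filters, a replicate block, the library suffix as a covariate and each library left out.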

Additional observations from a re-analysis of the deposited data

How the results depend on the processing

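Serpine2 and Plat were lower with an adjusted p under 0.05 in all 13 alternatives run, with log2 fold changes from -1.05 to -0.97 and from -1.16 to -1.01. Serpinf1 was lower in all 13 and passed in 9, and its log2 fold change lay between -0.36 and -0.28 when a library was left out. Plau changed sign in 1 alternative, with a range of -0.064 to 0.31 when a library was left out. Plaur ran from -1.12 to -0.31 when a library was left out, passed without knockout replicate 3, and passed without the low-count filter at -0.58. It did not pass under DESeq2 (adjusted p = 0.0999). The causes were not tested. Plgrkt, which was not called, changed sign without knockout or wild-type replicate 2 (range with a library left out -0.027 to 0.14), and Serping1 without wild-type replicate 3 (range -0.17 to 0.061). The plasminogen list had 7 to 11 genes called when a library was left out, and the serpin family had 13 to 18, and 23 without the low-count filter, where 51 rather than 28 genes were tested. With the replicate number as a block, Serpinf1 passed narrowly (log2 fold change -0.33, adjusted p = 0.0489), Plaur was at -0.68, and 6129 genes were called in all against 6561. The correlations of deviations from the genotype mean were -0.126, 0.0117 and -0.143 for same-numbered libraries. For differently numbered libraries they ran from -0.0516 to 0.153. With 3 libraries per genotype, these values cannot decide whether same-numbered libraries were paired. The low counts of Plg and Plaur limit what can be said of either.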

Other observations

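The 3 fibrinogen chain genes, listed here as plasmin substrates and singled out after their values were seen, were present at low levels and each called lower. Fga was at 3.13 ± 0.525 CPM in the knockout and 5.92 ± 0.765 CPM in wild type, Fgb at 2.57 ± 0.478 against 5.37 ± 1.31 CPM, and Fgg at 1.83 ± 0.612 against 4.43 ± 0.476 CPM (SD, n = 3). Other genes of blood proteins in the lists went both ways. F2 was called lower, at 0.234 ± 0.0920 against 0.782 ± 0.189 CPM. That call rests on few reads, with raw counts of 6, 4 and 3 in the knockout and 10, 14 and 16 in wild type. F7 was called higher, at 4.14 ± 0.750 against 1.99 ± 1.01 CPM. The F7 call ended without replicate 1 or 2 of either genotype (edgeR adjusted p from 0.0743 to 0.0798). F5 and Serpinc1 were not called.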
